A study of Homo sapiens with 8 samples.

Results

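Ribosome biogenesis genes encode the proteins that transcribe, modify, cut and assemble ribosomal RNA. A set of 34 of them was followed here in HEK293, a cell line derived from human embryonic kidney, with and without serotonin. The genes were chosen by symbol, and all 34 were found among the 58440 genes of the deposited count table. The study set cells that stably overexpress HTR1E, a receptor for serotonin that signals through inhibitory G proteins, beside control HEK293 cells. Per the labels there were 4 groups of 2 samples: HTR1E cells with serotonin, control cells with serotonin, HTR1E cells without ligand, and control cells without ligand. All samples were serum-starved for 3 h, and the treated ones then had 1 µM serotonin (5-HT) for 1 h. The labels name only a stable line and a control, and do not say how many clones the stable line came from or whether the control carried an empty vector. They also do not say that the 2 samples of a group were separate cultures, so the p-values measure only the spread between these libraries, which may be technical.

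Each column of counts is named by its treatment and by the letter A or B, with or without an R. No label ties either letter to the HTR1E line, and no line was assigned from the counts. The columns are therefore called set A and set B, and within each set and treatment the library without the R is numbered 1 and the one with it 2, which are names only. Serotonin was compared with no ligand within each set and averaged over both. HTR1E itself was measured at 221 and 226 normalized CPM (read pairs scaled to a common library size) in the serotonin A1 and A2 libraries, and at 175 and 181 CPM in the no ligand A1 and A2 libraries. In set B it was at 0.24 and 0.50 CPM in the serotonin B1 and B2 libraries, from 2 and 3 read pairs, and no read pair was counted in either library without ligand. The receptor transcript was thus high in every library of set A and near 0 in every library of set B.

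Ribosome production begins in the nucleolus, where RNA polymerase I copies the ribosomal RNA genes into a long precursor. Small nucleolar ribonucleoproteins (snoRNPs) methylate and pseudouridylate that precursor while assembly factors fold and cut it into the small and large subunits. Growth signals raise this output, partly through the transcription factor MYC, whose dimers bind the E-box CACGTG, and ERK signalling acts on polymerase I factors. The cAMP pathway acts through CREB, which binds the cAMP response element TGACGTCA.

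Promoter windows were read from RefSeq (GRCh38.p14) for the 250 bases before the annotated start, where 28 of the 34 genes had an entry. NOP58, BOP1, RRP12, RRS1, NOLC1 and POLR1E had none. The E-box letters CACGTG, which read the same on both strands, were in 4 of the 28 windows (14.3%), against 2110 of 27305 genes with a window (7.7%). The letters TGACGTCA, also the same on both strands, were in 0 of 28 windows (0.0%), against 555 of the 27305 (2.0%). The matches are shown because DDX21 and UTP20, 2 of the 4 genes, also had among the lowest p-values for serotonin described further on. WDR75, whose p lay between theirs, had a window without a match, and NOP10 and UTP14A had higher p-values. No link between a match and the serotonin response was tested. Each line gives bases around the match, 5′ to 3′ on the gene's strand, with CACGTG in capitals. The printed stretches of these windows are chr10:68956589-68956646 (plus strand, match 31 to 26 bases before the RefSeq start) for DDX21 and chr12:101280068-101280104 (plus strand, 10 to 5 bases before) for UTP20. For NOP10 the stretch is chr15:34343274-34343333 (minus strand, 170 to 165 bases before), and for UTP14A it is chrX:129905914-129905955 (plus strand, 241 to 236 bases before).
DDX21: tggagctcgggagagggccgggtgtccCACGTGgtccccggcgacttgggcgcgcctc
UTP20: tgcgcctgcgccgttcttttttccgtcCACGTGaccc
NOP10: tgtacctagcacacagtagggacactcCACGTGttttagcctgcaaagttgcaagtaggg
UTP14A: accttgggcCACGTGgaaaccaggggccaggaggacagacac
NOP10 held a second match 11 to 6 bases before its RefSeq start. The annotation used for counting starts DDX21 519 bases, UTP14A 43 bases and NOP10 41 bases further upstream than RefSeq, and UTP20 4 bases further downstream. By that annotation the DDX21 match and the second NOP10 match lie inside the gene, and the other matches lie before it. A match says only that these letters are in the window, and none was tested for binding.

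Libraries held 2604885 to 9072278 counted read pairs, and mitochondrial genes took 17.9% to 54.4% of them. The no ligand B1 library stood apart, with the fewest read pairs, 54.4% of them mitochondrial, and 20245 genes detected, against 25095 to 26956 genes in the other libraries. Serotonin B2 was next, with 36.3% mitochondrial read pairs. Markers of HEK293 cells were present, with 8 of 8 above 1 CPM on average. Their summed level was 553.8 to 907.8 CPM in serotonin libraries and 318.6 to 1003.2 CPM in libraries without ligand. Of the markers of other cell types, 1 of 4 for fibroblasts, 1 of 4 for blood, 0 of 4 for endothelium and 0 of 4 for liver were above 1 CPM, and PTPRC and TTR were at 0. In bulk RNA of this kind, fewer cells of a type and less RNA per cell cannot be told apart.

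All 34 genes passed the filter on low counts, with at least 11 read pairs in every library. Levels are compared between genes as normalized CPM per kilobase of exon. By that level the highest were FBL, the methyltransferase of box C/D snoRNPs, at 127 on average over the 8 libraries, NPM1, an abundant nucleolar chaperone, at 104, and NCL (nucleolin), which binds precursor ribosomal RNA, at 73.4. The lowest were UTP20, part of the small subunit processome, at 4.70, WDR12, a partner of PES1 and BOP1, at 3.62, and NOP2, a methyltransferase of large subunit RNA, at 1.00. The levels of NOP2, PPAN and RRS1 are uncertain, because 53.3%, 59.8% and 11.4% of their exon bases overlap another gene on the same strand, and the authors' counting gives a read in shared bases to neither gene. The gene that shares exons with NOP2 had 0 read pairs in every library, and P2RY11, which shares exons with PPAN, had 41 to 1588.

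**Figure D1:**
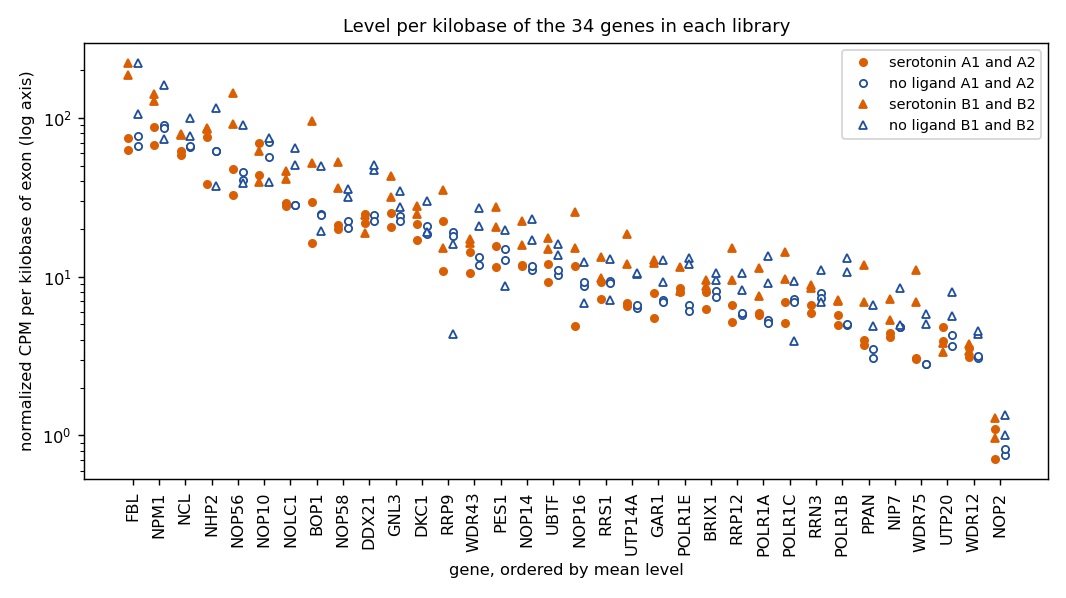
Level of each of the 34 genes in each library, as normalized CPM per kilobase of exon on a log axis, ordered by the mean of the 8 libraries. Filled orange marks are serotonin libraries and open blue marks those without ligand, circles set A and triangles set B; levels run from FBL at a mean of 127 to NOP2 at 1.00.

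The most abundant members were at like levels with and without serotonin in set A and differed between libraries of the same treatment in set B. FBL had 162 and 136 CPM in the serotonin A1 and A2 libraries, against 145 and 168 CPM in no ligand A1 and A2. In set B it had 405 and 486 CPM in the serotonin B1 and B2 libraries, against 229 and 480 CPM in no ligand B1 and B2. The treatments overlapped in set A, and in set B the no ligand B1 library alone was low. NPM1 had 336 and 258 CPM in serotonin A1 and A2 against 345 and 332 CPM in no ligand A1 and A2, and 538 and 490 CPM in serotonin B1 and B2 against 284 and 616 CPM in no ligand B1 and B2. NCL had 430 and 405 CPM in serotonin A1 and A2 against 453 and 463 CPM in no ligand A1 and A2, and 545 and 548 CPM in serotonin B1 and B2 against 534 and 691 CPM in no ligand B1 and B2. For NPM1 the 2 libraries without ligand in set B lay on either side of the serotonin ones, and for NCL no ligand B2 was the highest of all. In set A both serotonin libraries of NCL were slightly below both without ligand, and those of NPM1 overlapped them. Averaged over both sets, the log2 fold change (serotonin over no ligand) was 0.13 (SE 0.26) for FBL, 0.00 (SE 0.27) for NPM1 and -0.15 (SE 0.22) for NCL. None passed edgeR's quasi-likelihood test with Benjamini-Hochberg adjustment (adjusted p = 0.857, 1 and 0.793).

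**Figure D2:**
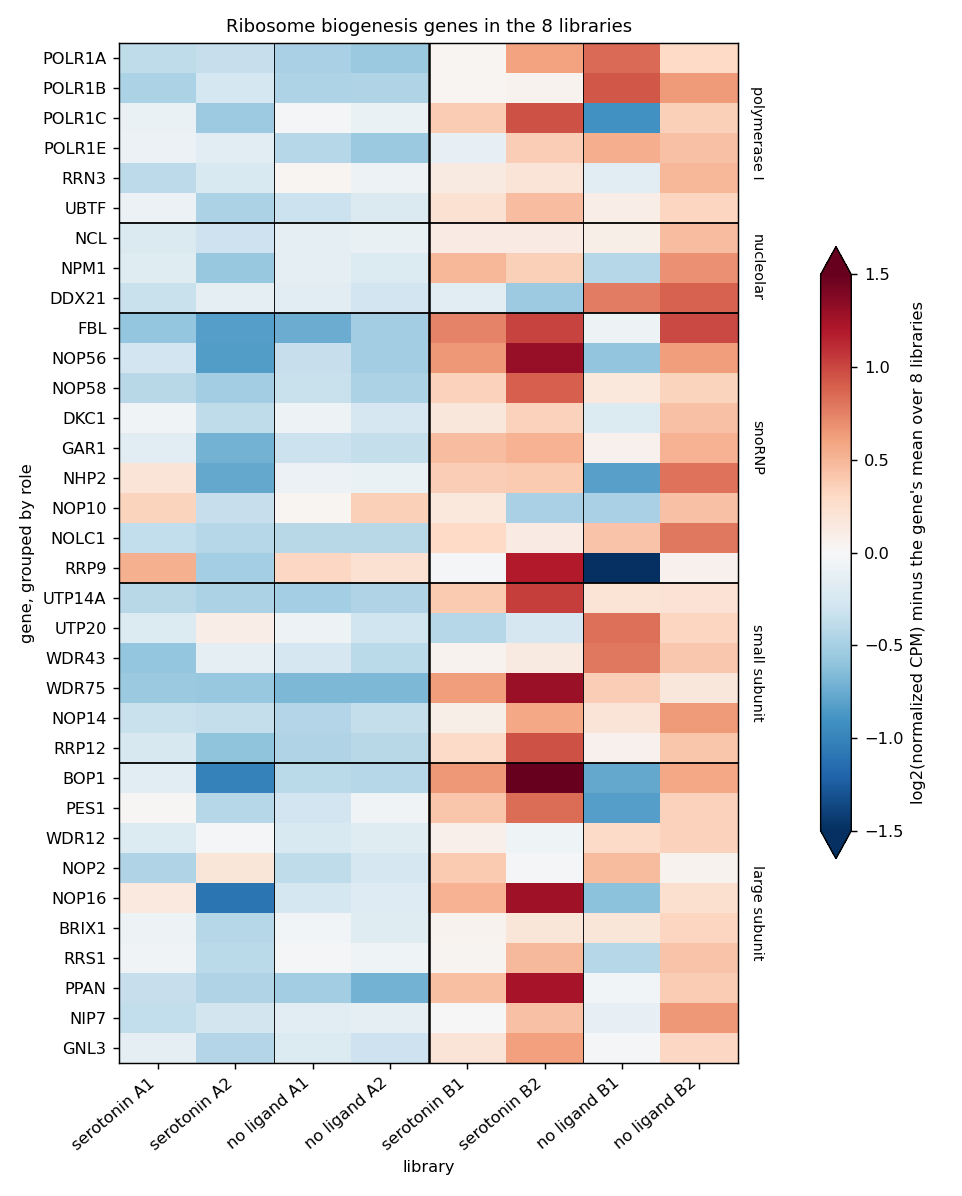
The 34 genes, grouped by role, in the 8 libraries, coloured by log2 normalized CPM minus the gene's mean over the libraries. Within each set the serotonin libraries stand left of those without ligand; colours end at 1.5 in either direction, a limit that RRP9 in no ligand B1 and BOP1 in serotonin B2 pass, and set B libraries differ more among themselves than set A libraries.

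No ribosome biogenesis gene was called for serotonin when both sets were averaged. At an adjusted p under 0.05, 0 of the 34 genes passed edgeR's quasi-likelihood test with Benjamini-Hochberg adjustment over 17144 genes, beside 1 gene in all (0.00583%). The fold changes of the 34 were centred near 0, with 20 above it and 14 below, a median log2 fold change of 0.02 and a range of -0.59 for DDX21 to 0.50 for RRP9. Over all genes tested the median was 0.00 and 50% were above 0. At an unadjusted p under 0.05 there was 1 member, DDX21, beside 11.1% of all genes. Of the 34 intervals at 95% confidence, 29 lay within a log2 change of 1 in either direction, and the widest limits were -1.03 for DDX21 and 1.30 for RRP9. No member had its 4 serotonin libraries all above (1.02% of genes) or all below (1.15% of genes) the 4 libraries without ligand. Leaving out the no ligand B2 library, which leaves no ligand B1 alone in its cell, gave 1498 calls over all genes (8.74%) and 2 among the 34 (5.88%), BOP1 (log2 fold change 0.91, adjusted p = 0.0442) and PES1 (0.72, adjusted p = 0.0471).

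In set A the fold changes were small beside their intervals. Of the 34, 0 were called by edgeR's quasi-likelihood test with Benjamini-Hochberg adjustment, beside 0% of genes, and 0 had an unadjusted p under 0.05, beside 0.362%. Fold changes ran from -0.28 for RRN3 to 0.37 for POLR1E on the log2 scale, with a median of -0.04 and 12 above 0, against a median of -0.02 over all genes. The intervals reached -1.27 for RRP9 and 1.119 for NOP2, and 26 of 34 lay within a log2 change of 1. In 4 members, WDR75, POLR1A, POLR1E and PPAN, both serotonin libraries were above both libraries without ligand (12.3% of genes), and in 3, NCL, RRN3 and NIP7, both were below (14.7%).

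In set B the fold changes were wider and went both ways. Of the 34 genes, 0 were called by edgeR's quasi-likelihood test with Benjamini-Hochberg adjustment, beside 0.0117% of genes, with a lowest adjusted p of 0.07 for DDX21. The median log2 fold change was 0.14, with 19 genes above 0, against 0.01 over all genes, and the range was -1.17 for DDX21 to 1.15 for RRP9. An unadjusted p under 0.05 was found for 3 genes with positive fold changes (NOP16, BOP1 and WDR75) and 3 with negative ones (DDX21, UTP20 and POLR1B), beside 26.5% of all genes. Both serotonin libraries were above both without ligand in 9 members (28.5% of genes) and below both in 7 (25.5%). Neither share was above that of all genes.

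Calls among these genes in set B depended on which libraries were in the fit. Without no ligand B2, the no ligand B1 library alone stood for its group and was assumed to vary like the others; 4818 genes (28.1%) were then called over all, and 11 of the 34 (32.4%). Of the 11, 8 had higher levels with serotonin (FBL, NOP56, NOP16, NHP2, BOP1, PES1, RRP9 and POLR1C) and 3 had lower levels (UTP20, POLR1B and DDX21). Without no ligand B1, 5 genes were called over all and 0 of the 34, and the median log2 fold change of the members was -0.12. Without serotonin B1, 1076 genes were called and 1 of the 34, DDX21 (log2 fold change -1.37, adjusted p = 0.0483). Mitochondrial genes took 24.6% and 36.3% of read pairs in serotonin B1 and B2, against 54.4% and 18.9% in no ligand B1 and B2. With serotonin B2 and no ligand B1 both left out, 12 genes were called over all and 0 of the 34, whose median was then -0.25.

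**Figure D3:**
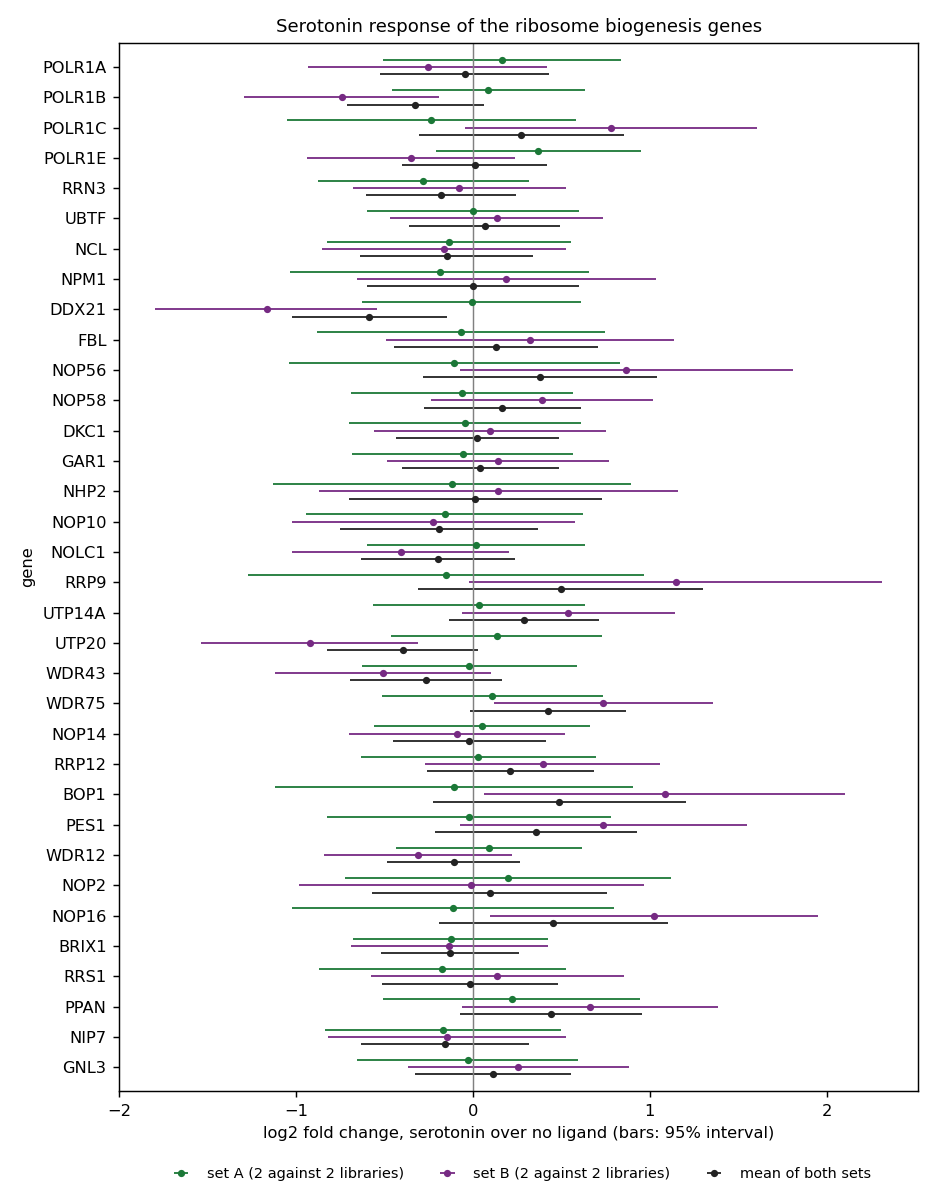
Log2 fold change of serotonin over no ligand for each gene, with its 95% interval, in set A (green), in set B (purple) and as the mean of both (black). Intervals that leave out 0 are those of NOP16, BOP1, UTP20, WDR75, POLR1B and DDX21 in set B and of DDX21 in the mean; after adjustment over 17144 genes 0 of these passed.

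Among the nucleolar proteins, DDX21 had the lowest p of the 34 genes. DDX21 is an RNA helicase that acts in ribosomal RNA transcription and processing, and it lies on chromosome 10 from 68956128 to 68985073 (hg38, plus strand). Its level was 123 and 94.0 CPM in the serotonin B1 and B2 libraries, against 234 and 253 CPM in no ligand B1 and B2. In set A it was 109 and 125 CPM in serotonin A1 and A2, against 122 and 112 CPM in no ligand A1 and A2. Both serotonin libraries of set B lay below both without ligand and close to the 4 libraries of set A, where the treatments overlapped. The log2 fold change was -1.17 in set B (SE 0.29), -0.01 in set A (SE 0.28) and -0.59 in the mean (SE 0.20, 95% interval -1.03 to -0.15). By edgeR's quasi-likelihood test with Benjamini-Hochberg adjustment the adjusted p was 0.07 in set B, 1 in set A and 0.424 in the mean. Over 18 settings, the reported one included, its set B value stayed between -1.37 and -0.99, with adjusted p under 0.05 in 4 of them: DESeq2 (0.0041), no filter on low counts (0.0459) and the fits without no ligand B2 (0.0119) or without serotonin B1 (0.0483).

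In the small subunit processome, a large particle that folds and cuts the precursor of the small subunit RNA, UTP20 and WDR75 had fold changes of opposite sign in set B. UTP20 had 33.6 and 38.2 CPM in serotonin B1 and B2 against 80.6 and 56.9 CPM in no ligand B1 and B2, and 39.4 and 48.5 CPM in serotonin A1 and A2 against 43.1 and 36.9 CPM in no ligand A1 and A2. WDR75, which also works in early processing, had 35.3 and 55.8 CPM in serotonin B1 and B2 against 29.4 and 25.7 CPM in no ligand B1 and B2, and 15.5 and 15.4 CPM in serotonin A1 and A2 against 14.3 CPM in each of no ligand A1 and A2. The treatments did not overlap for either gene in set B, with serotonin low for UTP20 and high for WDR75. For UTP20 the log2 fold change was -0.92 in set B (SE 0.28, adjusted p = 0.0918 by edgeR's quasi-likelihood test with Benjamini-Hochberg adjustment), 0.13 in set A and -0.40 in the mean (SE 0.20, adjusted p = 0.463); the set B value was -0.65 without no ligand B1 and -1.17 without no ligand B2 (adjusted p = 0.00807). For WDR75 it was 0.74 in set B (SE 0.28, adjusted p = 0.135), 0.11 in set A and 0.42 in the mean (SE 0.20, adjusted p = 0.458 by the same test). WDR75 and PPAN, a large subunit gene, had both serotonin libraries above both without ligand in each set. That order held in 12.3% of genes in set A and in 28.5% in set B. The share of genes in which it held in both sets is not given here. Without serotonin B2 the set B value of WDR75 was 0.37 (adjusted p = 0.634). The 6 small subunit factors were UTP20, WDR75, UTP14A, WDR43, NOP14 and RRP12, which acts in maturation and export of the small subunit. They split evenly, 3 above 0 and 3 below in both the mean and set B.

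Among the 9 snoRNP genes, 7 had positive fold changes and 2 negative ones both in the mean (median 0.04) and in set B (median 0.14), and 1 was above 0 in set A (median -0.07). RRP9, a protein of the snoRNP that guides the first cuts of the small subunit RNA, ranged most of all 34 genes, 8.03-fold between its highest and lowest library. It had 23.9 and 55.5 CPM in serotonin B1 and B2 against 6.91 and 25.3 CPM in no ligand B1 and B2, and 35.2 and 17.0 CPM in serotonin A1 and A2 against 30 and 28.4 CPM in no ligand A1 and A2. The treatments overlapped in both sets, and serotonin B2 and no ligand B1 were the extremes. Its log2 fold change was 1.15 in set B (SE 0.53, adjusted p = 0.195 by edgeR's quasi-likelihood test with Benjamini-Hochberg adjustment), -0.15 in set A and 0.50 in the mean (SE 0.37). Without no ligand B2 the set B value was 2.51 (adjusted p = 0.00993), with serotonin B2 and no ligand B1 left out it was -0.08, and without a filter on low counts it was 1.14 (adjusted p = 0.0274). The core box C/D proteins NOP56 and NOP58 had both serotonin libraries of set B above both without ligand, as had 28.5% of genes. The treatments came close. For NOP56 serotonin B1 was at 492 CPM against 485 CPM in no ligand B2, and for NOP58 at 118.7 against 118.3 CPM. Their log2 fold changes in set B were 0.87 (adjusted p = 0.22 by the same test) and 0.39 (adjusted p = 0.396). With serotonin B2 and no ligand B1 left out these were 0.02 and 0.01, and without no ligand B2 that of NOP56 was 1.60 (adjusted p = 0.00741). DKC1, the pseudouridine synthase of H/ACA snoRNPs, and its partners GAR1, NHP2 and NOP10 had set B values between -0.22 and 0.14, and NOLC1, a snoRNP chaperone, was at -0.41.

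The 10 large subunit genes had a median log2 fold change of 0.10 in the mean and 0.20 in set B, with 6 above 0 in each. BOP1, PES1 and WDR12 form a complex needed for the large subunit, and their set B values were 1.08, 0.74 and -0.31, none of them called. BOP1 had 193 and 356 CPM in serotonin B1 and B2 against 72.0 and 184 CPM in no ligand B1 and B2, with an SE of 0.47 for the log2 fold change (adjusted p = 0.168 by edgeR's quasi-likelihood test with Benjamini-Hochberg adjustment). The 2 treatments came close, 193 against 184 CPM, and in set A they overlapped. Its set B value ran from 0.07 with serotonin B2 and no ligand B1 left out to 1.93 without no ligand B2 (adjusted p = 0.00565), and that of PES1 from 0.08 to 1.47 (adjusted p = 0.00759) in the same fits. WDR12 had 34.3 and 31.2 CPM in serotonin B1 and B2 against 39.7 and 41.4 CPM in no ligand B1 and B2, and 28.2 and 32.2 CPM in serotonin A1 and A2 against 27.97 and 28.8 CPM in no ligand A1 and A2. It varied least of the 34 genes, 1.48-fold between its highest and lowest library, with log2 fold changes of -0.31 in set B, 0.09 in set A and -0.11 in the mean. NOP16, an assembly factor, had a set B value of 1.02 (SE 0.42, adjusted p = 0.155), which was 0.29 with serotonin B2 and no ligand B1 left out and 1.56 without no ligand B2 (adjusted p = 0.0275). NOP2, the lowest gene, had 5.98 and 4.52 CPM in serotonin B1 and B2 against 6.33 and 4.73 CPM in no ligand B1 and B2, and 3.34 and 5.18 CPM in serotonin A1 and A2 against 3.52 and 3.84 CPM in no ligand A1 and A2. Its treatments overlapped in both sets, with a log2 fold change of 0.09 in the mean (SE 0.30). PPAN, RRS1, BRIX1, NIP7 and GNL3, the last known as nucleostemin, had set B values between -0.15 and 0.66.

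The 6 polymerase I genes were centred near 0 in the mean, with a median log2 fold change of -0.02 and 3 above 0. POLR1B, the second largest subunit, had 44.3 and 45.1 CPM in serotonin B1 and B2 against 82.9 and 67.5 CPM in no ligand B1 and B2, and 31.3 and 36.1 CPM in serotonin A1 and A2 against 31.6 and 31.8 CPM in no ligand A1 and A2. Both serotonin libraries were below both without ligand in set B, while set A overlapped. The log2 fold change in set B was -0.74 (SE 0.25, adjusted p = 0.107 by edgeR's quasi-likelihood test with Benjamini-Hochberg adjustment), which was -0.58 without no ligand B1 and -0.89 without no ligand B2 (adjusted p = 0.024). POLR1C, a subunit shared with polymerase III, had a set B value of 0.78 (adjusted p = 0.211), which was 0.03 with serotonin B2 and no ligand B1 left out and 1.60 without no ligand B2 (adjusted p = 0.00664), and POLR1A, the largest subunit, one of -0.26. RRN3, the initiation factor that ERK signalling is known to act on, was at -0.28 in set A and -0.08 in set B, and UBTF, which binds ribosomal DNA, was at 0.00 and 0.13.

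**Figure D4:**
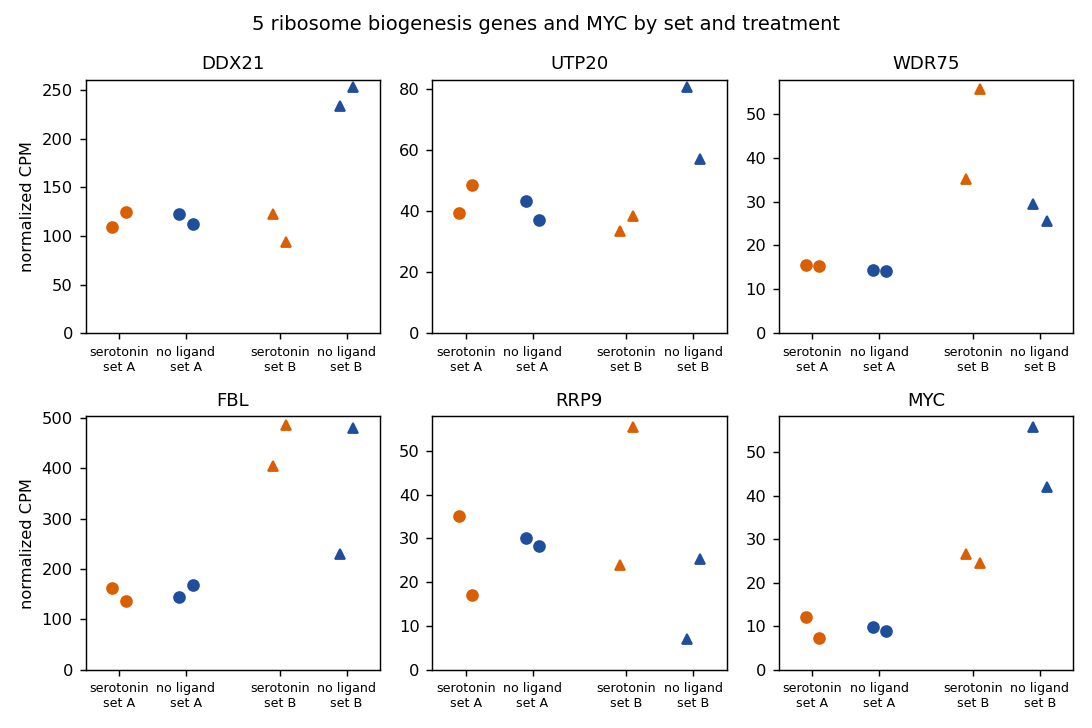
Normalized CPM of DDX21, UTP20, WDR75, FBL, RRP9 and MYC in each library, with serotonin (orange) left of no ligand (blue), circles for set A and triangles for set B; each axis starts at 0. In set B the serotonin libraries of DDX21, UTP20 and MYC lie below both libraries without ligand and those of WDR75 above, while FBL and RRP9 overlap.

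The difference between the 2 responses (set A minus set B) was tested directly. It was not called for any of the 34 genes by edgeR's quasi-likelihood test with Benjamini-Hochberg adjustment, nor for any gene (0 called, 0%). An unadjusted p under 0.05 was found for DDX21 (difference 1.16, SE 0.40), UTP20 (1.06, SE 0.39) and POLR1B (0.83, SE 0.35), 3 of the 34 genes beside 15% of all genes, with adjusted p of 0.302, 0.302 and 0.323. RRP9 had the widest difference, -1.30 (SE 0.74, adjusted p = 0.398). Without no ligand B2, 3405 genes (19.9%) and 6 of the 34 (17.6%) were called: UTP20 with a positive difference, and NOP56, BOP1, PES1, RRP9 and POLR1C with negative ones.

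Libraries of the same set and treatment also differed from each other, least in set A without ligand. Between no ligand A2 and A1, log2 differences of the 34 genes had an SD of 0.12 and ran from -0.22 to 0.31. Between serotonin A2 and A1 the SD was 0.41, with 2 genes beyond 1 in size, NOP16 at -1.21 and RRP9 at -1.02. Between serotonin B2 and B1 it was 0.40, and between no ligand B1 and B2 it was 0.62, with 8 genes beyond 1 in size, the widest RRP9 at -1.80. In the no ligand B1 and B2 pair, longer genes had the higher difference. Spearman's rho with exon length was 0.51 over the 34 genes and 0.30 over 17144 genes. In the serotonin A2 and A1 pair it was 0.44 and 0.31. Between serotonin B2 and B1 it was -0.08 over the 34 genes and -0.14 over all genes, and between no ligand A2 and A1 it was -0.06 and -0.01. These are correlations over genes of the same libraries, which are not independent, and the part of gene length in the serotonin differences was not tested.

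**Figure D5:**
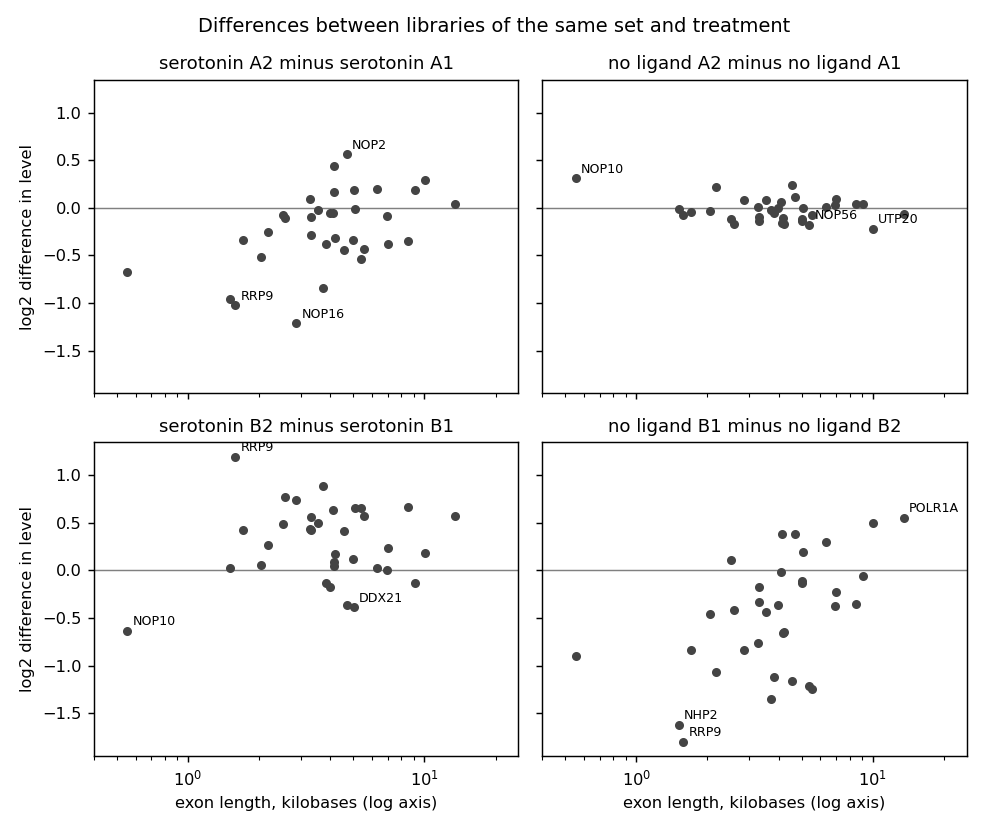
Log2 difference in level between the 2 libraries of each set and treatment against exon length in kilobases (log axis), 1 point per gene. Points spread least between no ligand A2 and A1 (SD 0.12) and most between no ligand B1 and B2 (SD 0.62), where RRP9 is lowest and POLR1A, the longest gene, highest.

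A wider list of 121 other ribosome biogenesis genes, all of them tested, gave 0 calls in each of the 4 comparisons by edgeR's quasi-likelihood test with Benjamini-Hochberg adjustment. At an unadjusted p under 0.05 there were 7 with higher and 4 with lower levels with serotonin in the mean, 0 in set A, and 14 with higher and 18 with lower levels in set B. That is 9.09%, 0% and 26.4% of the list, beside 11.1%, 0.362% and 26.5% of all genes. Their median log2 fold change was -0.01 in the mean, -0.02 in set A and 0.01 in set B. Without no ligand B2, 14 of the 121 (11.6%) were called in the mean, 35 (28.9%) in set B and 27 (22.3%) for the difference between the responses, beside 8.74%, 28.1% and 19.9% of all genes.

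MYC and early response genes were measured in the same libraries. MYC had 26.6 and 24.5 CPM in serotonin B1 and B2 against 55.9 and 42.2 CPM in no ligand B1 and B2, and 12.1 and 7.35 CPM in serotonin A1 and A2 against 9.93 and 8.96 CPM in no ligand A1 and A2. Its serotonin libraries were below both without ligand in set B and overlapped them in set A. The log2 fold change was -0.92 in set B (adjusted p = 0.0985), 0.06 in set A and -0.43 in the mean (adjusted p = 0.463 by edgeR's quasi-likelihood test with Benjamini-Hochberg adjustment). FOS, an early target of ERK signalling, had 17.6 and 8.71 CPM in serotonin B1 and B2 against 4.61 and 6.27 CPM in no ligand B1 and B2, and 4.83 and 2.34 CPM in serotonin A1 and A2 against 2.88 and 1.97 CPM in no ligand A1 and A2. EGR1, another such target, had 8.91 and 6.37 CPM in serotonin B1 and B2 against 16.1 and 9.36 CPM in no ligand B1 and B2, and 8.92 and 7.35 CPM in serotonin A1 and A2 against 3.63 and 3.94 CPM in no ligand A1 and A2. The serotonin libraries were thus above those without ligand for FOS in set B and for EGR1 in set A, and below for EGR1 in set B. None of these passed the test: for FOS the adjusted p was 0.146 in set B and 1 in set A, and for EGR1 it was 0.294 in set B and 1 in set A. Of 16 early genes, 15 were tested, of which 14 had a positive fold change in the mean and 1, MYC, a negative one, beside 50% of all genes above 0. In set A 10 of the 15 were above 0 (median log2 fold change 0.06), beside 46.5% of all genes. In set B 12 were (median 0.44), beside 50.5%. In the mean 1 of the 15 was called, NR4A1, which is named after its values were seen. NR4A1 had 87.7 and 104 CPM in serotonin B1 and B2 against 16.1 and 15.5 CPM in no ligand B1 and B2, and 24.3 and 18.04 CPM in serotonin A1 and A2 against 13.6 and 11.5 CPM in no ligand A1 and A2. Its log2 fold change was 1.68 in the mean (adjusted p = 0.0454) and 2.61 in set B (adjusted p = 0.0205), it was 0.76 in set A, where it was not called (adjusted p = 1), and NR4A1 was the one gene of 17144 called in the mean. With serotonin A1, serotonin A2, no ligand A1, no ligand A2, serotonin B1 or serotonin B2 left out in turn, 0 genes were called in the mean.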

How the data were processed

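The authors deposited raw counts of read pairs per gene in 8 libraries, made with featureCounts of Subread 2.0.1 on GENCODE 28, paired and reverse-stranded, per the file headers. The counted alignments had duplicates marked, and the command did not ask to ignore them. The submitters' processing notes also list cutadapt 3.4, FastQC 0.11.9, Bowtie2, STAR 2.7.8a, SAMtools 1.12 and hg38. PolyA libraries were stranded (TruSeq), per the labels' protocols. The counts file also gives exon length in bases per gene.

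Of 58440 gene IDs, 57754 had a symbol. Counts were fitted with edgeR 4.0.16 (R 4.3.3), with TMM scaling, filterByExpr (17144 genes left) and 1 mean per set and treatment. The filter needs the CPM that about 10 reads give in a library of median size, in at least 2 libraries of any group. The quasi-likelihood test was used, with Benjamini-Hochberg adjustment over all genes and calls at adjusted p under 0.05. DESeq2 1.42.0 and limma 3.58.1 were alternatives. Normalized CPM use TMM library sizes, and pair differences add 0.5 CPM. SEs are the fold change over the root of F, and intervals cover 95%. The fit was tested on simulated counts with the same small spread for every gene and no difference between the sets. That test does not cover libraries that differ as much as these. Libraries of a set and treatment differed by more than sampling noise (chi-square over degrees of freedom 4.2 to 154.28), so none was counted as a duplicate. The gene set, lists and roles were chosen with earlier results of these data known. Values per library are given for the 3 genes with the lowest p in the mean, the 3 highest and 3 lowest per kilobase, the gene whose responses differ most between sets, HTR1E, FOS, EGR1 and MYC; BOP1, POLR1B and NR4A1 were added after their values were seen. The HTR1E line was not compared with the control line, because no column name gives the line.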

Additional observations from a re-analysis of the deposited data

Results flagged for a closer look

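In 74 groups of 4 libraries of 1 treatment, each tested by Dixon's criterion, 6 had a library set apart from the other 3. The criterion flags about 1 in 20 groups by chance when all 4 values come from 1 population. Each group here held 2 libraries of set A and 2 of set B, and many genes differed in level between the sets. That rate therefore does not apply here. NOP56 was at 485 CPM in no ligand B2, against 209 to 247 CPM in the other libraries without ligand. NIP7 was at 27.6 CPM in no ligand B2, against 15.8 to 16.1 CPM in the others. POLR1E was at 28.98 CPM in serotonin B2, against 20.1 to 21.2 CPM in the other serotonin libraries. The other 3 concern no ligand B1 as a library. It held 2.6 M read pairs (2604885), against 8.15 to 9.07 M in the other libraries without ligand. Mitochondrial genes took 54.4% of them, against 17.9% to 18.9%, and 20245 genes were detected, against 25879 to 26956.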

How the results depend on the processing

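Of 19 alternatives, 16 were planned and 3 were added after the data were seen: mitochondrial genes left out, the 2 libraries highest in mitochondrial share left out, and limma voom with library weights. Set A gave 0 calls in each of its alternatives. For serotonin in the mean (1 gene called), there were 227 genes without a filter, 12 with DESeq2, 3 with the 2 libraries left out, 0 without the interaction term, 0 with the replicate block by trailing letter, and 0 to 1498 with 1 library left out. Under that block 0 of the 34 were called. The trailing letter was not taken as a pairing, since the 6 correlations between paired deviations ran from -0.49 to 0.15. In the mean, leaving out 1 library gave 0 to 2 calls among the 34 and 0 to 14 in the wider list. For set B (2 genes), there were 1830 without a filter, 1443 with DESeq2, 9 with set B fitted alone, 12 with the 2 libraries left out, 0 with limma voom and 0 to 4818 with 1 library left out. Among the 34 in set B there were 2 calls without a filter (RRP9 and DDX21), 1 with DESeq2 (DDX21) and 0 to 11 with 1 library left out; in the wider list there were 11, 10 and 0 to 35. For the difference between responses (0 genes), there were 570 without a filter, 70 with DESeq2 and 0 to 3405 with 1 library left out. The 34 then gave 0 to 6 calls with 1 library left out, and the wider list 3 without a filter and 0 to 27. The cause of these differences was not tested. Of 603 values of the named genes under other settings, 545 kept direction and side of the threshold, 48 moved and 10 passed it. Alternatives for the HTR1E line against the control line were not run. Depth limits no ligand B1 most, with 11 read pairs for its lowest member.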

Other observations

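The 2 sets also differed in level, whatever the treatment. In 17 of the 34 genes (50%) all 4 libraries of set B lay above all 4 of set A, beside 7.62% of the 17144 genes, and in 0 they lay below, beside 9.96%. The 17 were NCL, FBL, NOP58, NOP14, GAR1, RRP12, BRIX1, NOLC1, UTP14A, WDR43, WDR75, POLR1A, POLR1B, UBTF, PPAN, GNL3 and NIP7. The median over set B libraries was 2.89 times that over set A for FBL, 2.18 times for WDR75, 1.85 times for POLR1A and 1.24 times for NCL. NOP10 and RRP9 had lower medians in set B, 0.80 and 0.844 times those of set A. FBL had 405, 486, 229 and 480 CPM in the set B libraries and 162, 136, 145 and 168 CPM in the set A libraries, each in the order serotonin 1 and 2, then no ligand 1 and 2. POLR1A had 103, 153, 183 and 124 CPM in set B and 77.7, 79.9, 72.1 and 68.6 CPM in set A, in the same order. The sets are named by letter only, so no test between them was run.

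Beyond the early response list, NR4A2, a nuclear receptor related to NR4A1, was the other gene called in set B and was chosen after its values were seen. It had 65.7 and 67.8 CPM in serotonin B1 and B2 against 13.3 and 8.48 CPM in no ligand B1 and B2, and 8.80 and 8.69 CPM in serotonin A1 and A2 against 7.15 and 5.22 CPM in no ligand A1 and A2. Its log2 fold change in set B was 2.71 (adjusted p = 0.0205 by edgeR's quasi-likelihood test with Benjamini-Hochberg adjustment). With serotonin A1, serotonin A2, no ligand A1, no ligand A2 or serotonin B2 left out in turn, 0 genes were called in set B.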
